A study of Mus musculus with 24 samples.

Results

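The constitutive proteasome genes described here are 44 genes of the 23240 rows of a liver RNA-seq count table. They are the rows whose symbol begins with Psma, Psmb, Psmc, Psmd, Psme, Psmf or Psmg and a digit, without the immunoproteasome genes Psmb8, Psmb9 and Psmb10, and with at least 1 CPM (counts per M, or mega, of library total) in all 24 libraries. Of 49 rows that matched the name, 3 were left out by name and Psma8 and Psmb11 by level. Psma8, a testis alpha subunit, reached 1 CPM in 1 library and ranged from 0.103 to 1.14 CPM. Psmb11, the thymus beta subunit, ranged from 0.0296 to 0.239 CPM. The lowest gene inside the threshold was Psmc3ip, at 3.15 CPM or more. Psmc3ip encodes a meiotic recombination factor that binds a proteasome ATPase and is not a proteasome subunit. It met the naming rule only, so it was kept and counted on its own. The other 43 comprise 7 alpha and 7 beta subunits of the 20S core, 9 subunits of the 19S base, 8 of the 19S lid, 3 chaperones of 19S assembly, 4 chaperones of 20S assembly, and 5 activators or inhibitors. All 44 passed the filter on low counts and were tested.

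RNA came from livers of female NOD scid gamma (NSG) mice aged 8 weeks, an immunodeficient strain that lacks mature T, B and NK cells. Tail veins were injected 2 times a week for 5 weeks with extracellular vesicles (EVs, which cells shed into their surroundings; about 10 µg a dose) or with phosphate-buffered saline (PBS), and livers were taken 2 days after the final dose. The groups were MDA-MB-231 EV (vesicles of a human triple-negative breast cancer line), MCF10A/miR-122 EV (vesicles of MCF10A cells that, by the group name, carry miR-122), MCF10A EV (vesicles of a non-tumorigenic human breast epithelial line) and PBS, with 6 libraries each. Each library was taken as 1 mouse, which the labels do not state, so p-values measure the spread between these libraries. Totals were 21.3 to 33.7 M counts per library.

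Features of the libraries touch every comparison. For 12 libraries the name of the library contradicts the treatment label: those labelled MCF10A/miR-122 EV are named after the MDA-MB-231 line, and those labelled MDA-MB-231 EV are named after miR-122. Groups are called by their labels here. The libraries also fall into 2 sets of 12. Serpina3a, which encodes a serpin, was at 0.468 to 5.75 CPM in MDA-MB-231 EV and 0.273 to 4.95 CPM in MCF10A/miR-122 EV libraries, against 132 to 302.0 CPM in MCF10A EV and 113 to 315 CPM in PBS libraries. In the 4 comparisons that cross these sets, set and treatment cannot be told apart. MCF10A EV against PBS and MDA-MB-231 EV against MCF10A/miR-122 EV stay within a set. Albumin was at 72412 CPM or more in every library, and 10 of 10 hepatocyte markers were detected. The 9 T, B and NK cell markers summed to 0.957 to 2.33 CPM. Summed Kupffer cell markers were at 184 to 301 CPM in MDA-MB-231 EV, 241 to 591 CPM in MCF10A/miR-122 EV, 221 to 265 CPM in MCF10A EV and 253 to 331 CPM in PBS livers. In bulk liver RNA, fewer cells of a type and less RNA per cell cannot be told apart.

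The proteasome is the protease that degrades proteins tagged with ubiquitin. Its 20S core is a barrel of stacked rings, with outer alpha rings that gate the entry and inner beta rings that hold the catalytic sites of Psmb5, Psmb6 and Psmb7. The 19S regulatory particle caps the barrel. Its base holds the Psmc ATPases that unfold substrates, and its lid holds the deubiquitinase Psmd14. Alternative caps such as the interferon-inducible PA28 alpha-beta ring of Psme1 and Psme2 open the core without ubiquitin. When proteasomes are inhibited, the transcription factor Nfe2l1 raises the subunit genes together through antioxidant response elements in their promoters, which makes this set a known example of coordinate control.

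Promoter sequence is shown for 6 genes that the results turn on: Psma3 and Psma5, the alpha subunit genes called lower most often, Psme1 and Psme2, which differed in opposite directions, and the catalytic subunit genes Psmb5 and Psmb6. Each line gives the 250 bases before the annotated start, 5′ to 3′ on the gene's strand, from RefSeq on GRCm38.p6. Capitals mark matches, on either strand, to TGACNNNGC (an antioxidant response element core) or CCAAT (the NF-Y box). Psme2 has a further annotated start, not shown.

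Psma3 (chr12:70974373-70974622, plus strand): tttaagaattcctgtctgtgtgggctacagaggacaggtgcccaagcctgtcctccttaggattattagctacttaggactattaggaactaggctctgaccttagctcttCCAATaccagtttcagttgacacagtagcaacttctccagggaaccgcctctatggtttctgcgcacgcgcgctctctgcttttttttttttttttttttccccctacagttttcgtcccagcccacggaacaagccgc
Psma5 (chr3:108256676-108256925, plus strand): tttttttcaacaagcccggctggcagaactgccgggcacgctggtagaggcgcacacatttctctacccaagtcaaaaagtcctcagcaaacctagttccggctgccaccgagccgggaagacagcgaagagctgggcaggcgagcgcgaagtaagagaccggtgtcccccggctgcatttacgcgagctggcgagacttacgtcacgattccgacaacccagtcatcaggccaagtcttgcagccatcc
Psme1 (chr14:55578244-55578493, plus strand): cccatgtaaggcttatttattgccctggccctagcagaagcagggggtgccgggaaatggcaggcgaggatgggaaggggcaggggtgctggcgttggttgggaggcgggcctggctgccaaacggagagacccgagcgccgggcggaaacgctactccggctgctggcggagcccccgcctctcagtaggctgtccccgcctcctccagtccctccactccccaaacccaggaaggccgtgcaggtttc
Psme2 (chr14:55591022-55591271, minus strand): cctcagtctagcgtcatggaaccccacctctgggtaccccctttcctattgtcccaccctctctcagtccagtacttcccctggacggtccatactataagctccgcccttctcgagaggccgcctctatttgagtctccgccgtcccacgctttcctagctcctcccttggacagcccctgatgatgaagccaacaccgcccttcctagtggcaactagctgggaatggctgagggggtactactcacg
Psmb5 (chr14:54617996-54618245, minus strand): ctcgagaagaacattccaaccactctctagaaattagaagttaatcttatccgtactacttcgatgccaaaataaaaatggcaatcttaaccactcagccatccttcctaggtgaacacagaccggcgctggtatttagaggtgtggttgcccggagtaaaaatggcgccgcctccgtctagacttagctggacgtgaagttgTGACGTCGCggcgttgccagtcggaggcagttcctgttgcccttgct
Psmb6 (chr11:70525107-70525356, plus strand): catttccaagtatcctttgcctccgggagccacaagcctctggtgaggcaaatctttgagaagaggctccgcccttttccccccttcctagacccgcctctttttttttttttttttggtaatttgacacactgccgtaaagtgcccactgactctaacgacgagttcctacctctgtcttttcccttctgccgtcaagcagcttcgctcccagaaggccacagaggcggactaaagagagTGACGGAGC

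Promoter entries, 40 in total, were found for 37 of the 44 genes. TGACNNNGC occurred in 5 of these 40 entries (12.5%), against 10.2% of 32851 mouse promoter entries of the same length. The 5 were Psmb5 at 47 bases before the start, Psmb6 at 9, Psmd9 at 31, Psmc6 at 227 and Psmd12 at 247. CCAAT occurred in 13 of the 40 entries (32.5%), against 33.8% of all promoter entries. No match of one motif overlapped a match of the other. None of the 7 genes called below had TGACNNNGC in this window. These are matches of letters only.

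Levels were compared between genes as CPM per kilobase (kb) of transcript, over all 24 libraries. The 14 core genes had a median of 59.4 CPM per kb (13.1 to 106) and the 17 regulatory genes 38.1 CPM per kb (16.9 to 60.2). Psmb6, the caspase-like catalytic subunit, was the highest at 106 CPM per kb. Psmb4, a structural beta subunit, followed at 98.7 and Psma7, an alpha subunit, at 93.8 CPM per kb. The trypsin-like subunit gene Psmb7 was at 88.7 and the chymotrypsin-like Psmb5 at 48.9 CPM per kb. The lowest core genes were Psma3 at 13.1 and Psma2 at 14.4 CPM per kb, and the annotated transcripts used for them were the longest of the core, at 2.85 and 2.91 kb. In CPM, without the length, Psma3 averaged 37.3, Psma2 41.8 and Psma5 26.8. Within the regulatory particle, Psmd4, a ubiquitin receptor, led at 60.2 CPM per kb and Psmd11, a lid scaffold, was lowest at 16.9 CPM per kb. The 9 base genes spanned 2.15-fold between lowest and highest, the 7 beta genes 2.16-fold, the 8 lid genes 3.17-fold and the 7 alpha genes 7.15-fold.

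Chaperones of assembly had lower medians per length than the core and regulatory genes, and the caps ranged widely. The 4 chaperones of core assembly had a median of 13.8 CPM per kb (10.6 to 17.1), and the 3 chaperones of 19S assembly 6.54 CPM per kb (5.48 to 9.15). Among the caps, Psme1 was at 55.7 CPM per kb, Psme2 at 26.7, the nuclear cap Psme3 at 17.1 and the large cap Psme4 at 15.5. The inhibitor Psmf1 was at 8.48 CPM per kb. Psmc3ip was at 3.28 CPM per kb, the lowest of the 44.

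**Figure D1:**
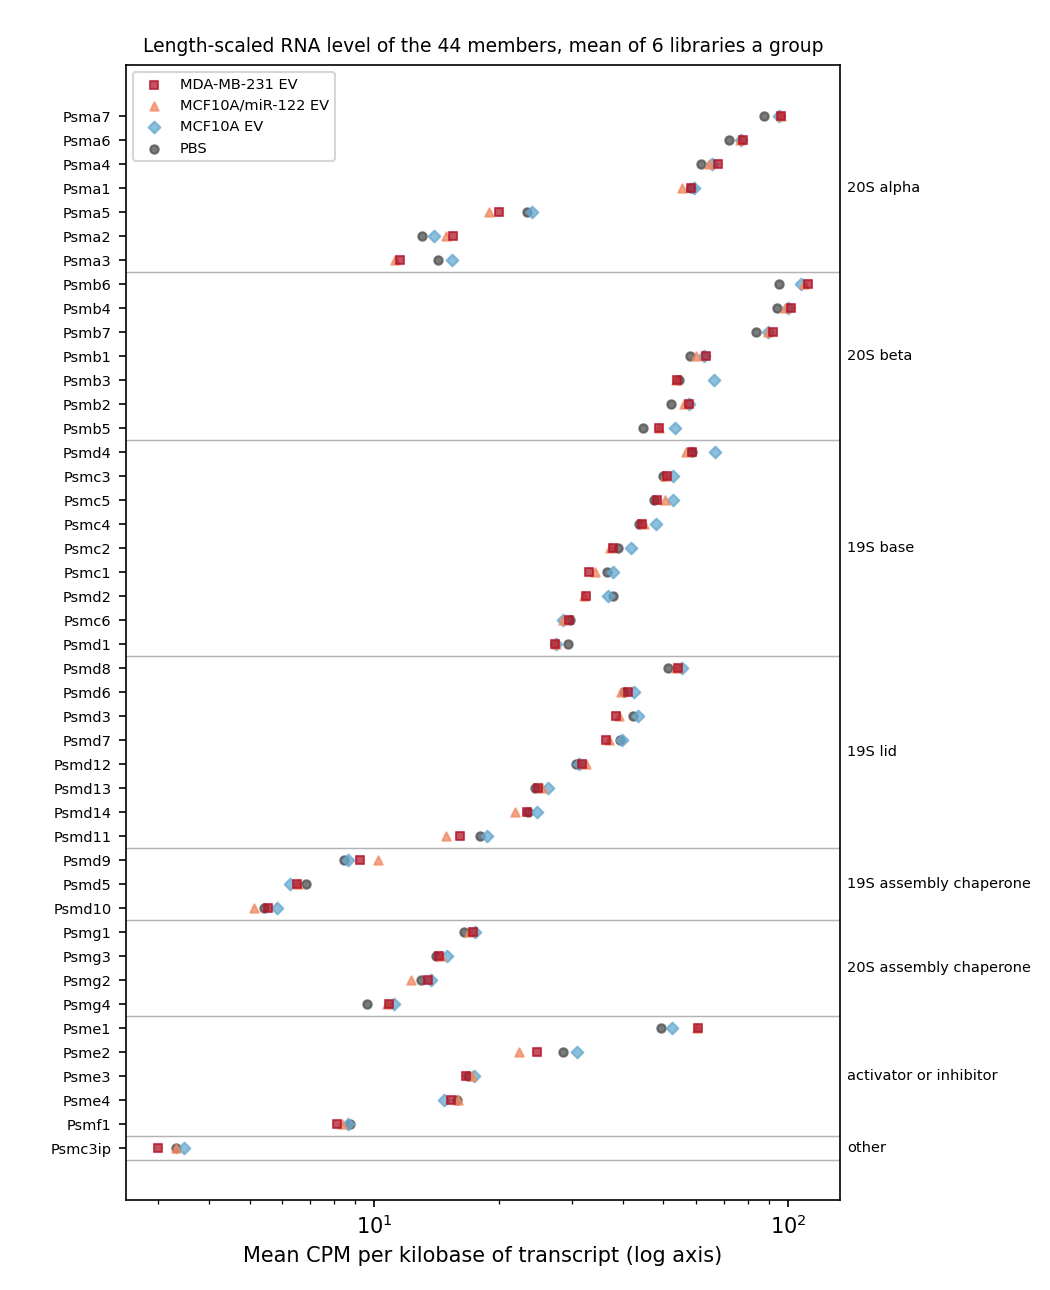
Mean CPM per kilobase of transcript (log axis) for each of the 44 genes, arranged by subcomplex and, within it, from the highest to the lowest level. Each marker is the mean of 6 libraries of a group; core genes run from 13.1 to 106 CPM per kb, and the markers of the 4 groups lie close together for most genes.

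The genes varied little between libraries of a group. The coefficient of variation (SD as a percent of the mean, averaged over the 4 groups) had a median of 8.42% over the 44 genes, 8.37% over the core and 7.86% over the regulatory genes. Over 8577 genes with means from that of Psmc3ip (4.24 CPM) to that of Psmb4 (117 CPM), it was 11.7%. These genes were not matched to the 44 by level within that range, so the 2 medians are not a like comparison. Psmd13, a lid subunit, was the steadiest at 4.93%, followed by Psmb7 at 5.96% and Psmb1 at 6.25%. Psmg4, a low-level chaperone of core assembly, varied most, at 17.7%. By group, the median over the 44 genes was 6.79% in MDA-MB-231 EV, 10.7% in MCF10A/miR-122 EV, 7.90% in MCF10A EV and 8.42% in PBS livers.

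Within a group, libraries tended to be high or low across many of these genes at once. In PBS, replicate 5 was above the group's mean for 42 of 44 genes and the highest of 6 for 36. In MCF10A/miR-122 EV, replicate 4 was above the mean for 40 genes and replicate 5 for 32, while replicate 1 was above it for 6 and replicate 6 for 4. In MCF10A EV, replicate 5 was the highest of 6 for 22 genes and the lowest of 6 for 8. The median deviation from the group mean (log2) was 0.16 in PBS replicate 5 and 0.17 in MCF10A/miR-122 EV replicate 4. The same counts were not made over all genes, so whether these shifts are particular to the 44 genes is not known.

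Differences between groups were small. The widest span between the highest and the lowest of the 4 group means was 0.48 on the log2 scale, for Psme2, and the narrowest 0.058, for Psme3. The group mean was highest in MDA-MB-231 EV for 10 genes, in MCF10A/miR-122 EV for 2, in MCF10A EV for 26 and in PBS for 6. It was lowest in MDA-MB-231 EV for 7, in MCF10A/miR-122 EV for 13, in MCF10A EV for 3 and in PBS for 21. No such counts were made over all genes or with another scaling, so they are not known to be particular to these genes. Scaling to library totals only changed some directions. Core genes above 0 on the log2 scale went from 14 to 8 of 14 in MCF10A EV against PBS. Regulatory genes above 0 went from 8 to 0 of 17 in MDA-MB-231 EV against PBS. In MCF10A/miR-122 EV against MCF10A EV, core genes above 0 went from 3 to 4 of 14.

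Tests used edgeR's quasi-likelihood F test with Benjamini-Hochberg adjustment over 13773 genes, and a gene is called at an adjusted p under 0.05. In any difference among the 4 groups, 7 of the 44 genes were called (15.9%), against 21.4% of all genes tested. They were Psma3 (adjusted p = 1.4e-05), Psma5 (0.0015), Psmd11 (0.0076), Psme2 (0.021), Psmb3 (0.031), Psmd2 (0.036) and Psme1 (0.044). Leaving out 1 library lost this call in 14 of 24 fits for Psme1, 12 of 24 for Psmd2 and 4 of 24 for Psmb3, and in 0 for the other 4 genes. The calls thus took in 3 core genes, 2 regulatory genes and both genes of the PA28 alpha-beta cap. No chaperone of assembly was called, nor was any catalytic subunit gene.

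In MDA-MB-231 EV against PBS, 1 gene was called higher and 2 lower, where 11.7% of all genes were called, 5.33% higher and 6.34% lower. For MCF10A/miR-122 EV against PBS, 1 was called higher and 5 lower, against 17.9% of all genes, 8.35% higher and 9.53% lower. Relative to MCF10A EV, 0 were called higher and 3 lower in MDA-MB-231 EV, against 7.68% of all genes, 3.24% higher and 4.44% lower. For MCF10A/miR-122 EV against MCF10A EV, 0 were called higher and 5 lower, against 16.2% of all genes, 7.53% higher and 8.71% lower. In none of these 4 tests was the share of the 44 called in either direction above the share of all genes. For calls lower alone, it was above in both comparisons against MCF10A EV: 6.82% against 4.44% in MDA-MB-231 EV and 11.4% against 8.71% in MCF10A/miR-122 EV. In MCF10A/miR-122 EV against PBS, 5 of 44 lower was also above 9.53%, and in MDA-MB-231 EV against PBS 2 of 44 was below 6.34%. With scaling to library totals only, 0 were called higher and 11 lower in MDA-MB-231 EV against PBS, which is 25% of the 44 against 18.8% of all genes (2.48% higher and 16.4% lower). In MCF10A/miR-122 EV against PBS, 0 were then called higher and 8 lower, or 18.2% against 20.2% of all genes. In MDA-MB-231 EV against MCF10A EV, 0 were then called higher and 5 lower, or 11.4% against 7.30% of all genes. These 4 comparisons share their libraries in pairs, so they are not separate evidence.

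Within the sets no member was called with all libraries and TMM scaling. In MCF10A EV against PBS, edgeR, DESeq2 and limma-voom each called 0 of 44, and 3 genes (6.82%) had an unadjusted p under 0.05, against 17.3% of all genes. By adjusted p, edgeR called 1.07% of all genes, 0.37% higher and 0.697% lower. The 3 tools also called 0 in MDA-MB-231 EV against MCF10A/miR-122 EV, and 0 genes had an unadjusted p under 0.05, against 8.19% of all genes. By adjusted p, edgeR called 0.254% of all genes, 0.0436% higher and 0.211% lower. Groups that do not overlap were found for 0 of 44 genes in both comparisons, against 0.9% of all genes in MCF10A EV against PBS and 0.733% in MDA-MB-231 EV against MCF10A/miR-122 EV. Without PBS replicate 5, Psmb3 and Psmb5 were called higher in MCF10A EV against PBS (4.55% of the 44), and the share of all genes called was 5.36%. With all libraries, the 17 calls of a member in a comparison lie in comparisons that cross the sets.

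**Figure D2:**
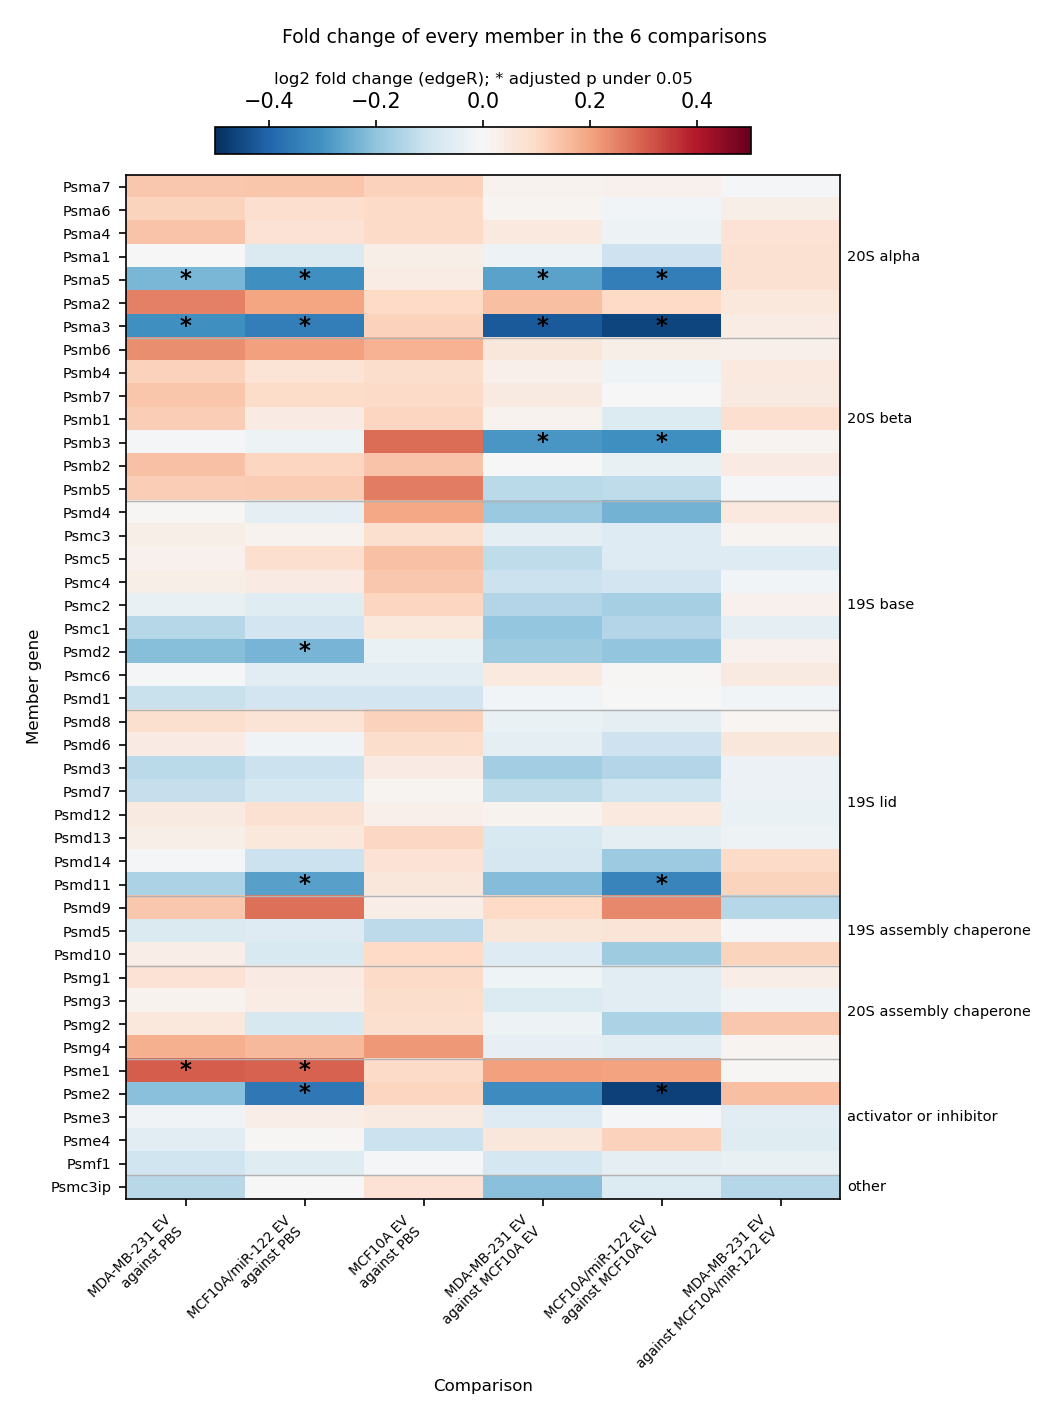
Log2 fold change of each of the 44 genes (rows, by subcomplex) in the 6 comparisons (columns), on a colour scale from -0.5 to 0.5 where red is higher in the first-named group. Asterisks show the 17 values with an adjusted p under 0.05; none falls in the 2 comparisons within a set.

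Psma3, an alpha ring subunit, gave the smallest adjusted p of the 44. It was at 31.5, 32.6 and 34.7 CPM (lowest, median and highest) in MDA-MB-231 EV livers and at 28.9, 31.9 and 35.2 CPM in MCF10A/miR-122 EV livers, against 37.1, 44.1 and 50.4 CPM in MCF10A EV and 38.2, 40.8 and 42.9 CPM in PBS livers. All 12 libraries of the first set lay below all 12 of the second. Against PBS the log2 fold change was -0.31 (SE 0.064, adjusted p = 0.00282) in MDA-MB-231 EV and -0.34 (SE 0.064, adjusted p = 0.000635) in MCF10A/miR-122 EV. Against MCF10A EV it was -0.42 (SE 0.064, adjusted p = 0.000138) in MDA-MB-231 EV and -0.46 (SE 0.064, adjusted p = 2.34e-05) in MCF10A/miR-122 EV. These are falls to between 0.728 and 0.809 of the other group's level. Each of these 4 calls held in all 24 fits that left out a library. Of all genes tested, 6.22% had groups that do not overlap in MDA-MB-231 EV against PBS and 5.88% in MCF10A/miR-122 EV against PBS. Against MCF10A EV the share was 5.05% in MDA-MB-231 EV and 5.63% in MCF10A/miR-122 EV.

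Psma5, another subunit of the alpha ring, fell in the same comparisons. It was at 22.9, 24.6 and 28.1 CPM in MDA-MB-231 EV and 19.8, 22.5 and 27.5 CPM in MCF10A/miR-122 EV livers, against 28.0, 30.1 and 30.8 CPM in MCF10A EV and 27.5, 28.4 and 31.7 CPM in PBS livers. Groups were separate in MCF10A/miR-122 EV against MCF10A EV and overlapped in the other 3 comparisons. Against PBS the log2 fold change was -0.23 (SE 0.071, adjusted p = 0.035) in MDA-MB-231 EV and -0.31 (SE 0.071, adjusted p = 0.0042) in MCF10A/miR-122 EV. Against MCF10A EV it was -0.27 (SE 0.071, adjusted p = 0.020) in MDA-MB-231 EV and -0.34 (SE 0.071, adjusted p = 0.0017) in MCF10A/miR-122 EV. The call in MDA-MB-231 EV against PBS was lost in 6 of the 24 fits without a library, with an adjusted p of up to 0.071.

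Psmb3, a structural beta subunit, fell against MCF10A EV and was not called against PBS. It was at 37.1, 41.9 and 44.4 CPM in MDA-MB-231 EV and 34.2, 38.3 and 52.4 CPM in MCF10A/miR-122 EV livers, against 44.6, 52.2 and 54.1 CPM in MCF10A EV livers and 37.6, 40.7 and 46.8 CPM in PBS livers. MCF10A EV livers had the highest median; their libraries lay above all MDA-MB-231 EV libraries and overlapped with those of MCF10A/miR-122 EV and PBS. Against MCF10A EV the log2 fold change was -0.29 (SE 0.091, adjusted p = 0.047) in MDA-MB-231 EV and -0.30 (SE 0.091, adjusted p = 0.023) in MCF10A/miR-122 EV. In MCF10A EV against PBS it was 0.28 (SE 0.091, adjusted p = 0.12). The call in MDA-MB-231 EV was lost in 10 of the 24 fits without a library and with no filter on low counts (adjusted p = 0.058). The call in MCF10A/miR-122 EV was lost in 4 of the 24 fits.

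The other alpha and beta genes had no calls. Psma2, an alpha subunit, was at 40.9, 45.7 and 50.1 CPM in MDA-MB-231 EV livers, against 36.4, 37.6 and 39.7 CPM in PBS livers. All 6 MDA-MB-231 EV libraries were above all 6 PBS libraries, and the log2 fold change was 0.25 (SE 0.087, adjusted p = 0.060). Psmb5 was at 40.5, 43.0 and 48.9 CPM in MDA-MB-231 EV, 37.2, 43.2 and 50.8 CPM in MCF10A/miR-122 EV, 45.4, 47.3 and 52.1 CPM in MCF10A EV and 37.0, 39.0 and 45.8 CPM in PBS livers. Psmb6 was at 78.8, 88.0 and 102 CPM in MDA-MB-231 EV, 66.4, 87.8 and 109 CPM in MCF10A/miR-122 EV, 77.6, 84.5 and 95.1 CPM in MCF10A EV and 68.2, 74.7 and 85.1 CPM in PBS livers. For both, the PBS group had the lowest mean and every pair of groups that involved PBS overlapped. Psmb7 averaged 107 ± 4.29 CPM in MDA-MB-231 EV, 104 ± 9.36 CPM in MCF10A/miR-122 EV, 104 ± 5.29 CPM in MCF10A EV and 97.1 ± 5.53 CPM in PBS livers (SD, n = 6 each). Adjusted p-values over the 4 groups were 0.12 for Psmb5, 0.24 for Psmb6 and 0.29 for Psmb7 in edgeR's test.

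In the base of the regulatory particle, Psmd2, a large scaffold subunit, was the only call. It was at 87.1, 95.8 and 109 CPM in MDA-MB-231 EV and 79.7, 95.8 and 106 CPM in MCF10A/miR-122 EV livers, against 95.9, 111 and 118 CPM in MCF10A EV and 102, 108 and 128 CPM in PBS livers. All the groups overlapped. The log2 fold change against PBS was -0.23 (SE 0.074, adjusted p = 0.032) in MCF10A/miR-122 EV and -0.21 (SE 0.074, adjusted p = 0.063) in MDA-MB-231 EV, the second not called. The call was lost in 5 of the 24 fits without a library and when only the compared groups were fitted (adjusted p = 0.065). Of the ATPase genes, Psmc1 had the smallest p over the 4 groups (adjusted p = 0.089). Psmc1 averaged 52.5 ± 1.77 CPM in MDA-MB-231 EV, 54.2 ± 4.58 CPM in MCF10A/miR-122 EV, 60.1 ± 4.22 CPM in MCF10A EV and 58.0 ± 5.29 CPM in PBS livers (SD, n = 6 each).

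In the lid, Psmd11, a scaffold subunit whose human counterpart raises proteasome assembly in embryonic stem cells, fell in MCF10A/miR-122 EV livers. It was at 41.4, 45.5 and 51.7 CPM in MDA-MB-231 EV and 36.4, 43.6 and 47.4 CPM in MCF10A/miR-122 EV livers, against 49.0, 52.5 and 61.4 CPM in MCF10A EV and 46.3, 52.6 and 54.1 CPM in PBS livers. MCF10A/miR-122 EV libraries lay below all MCF10A EV libraries and overlapped with PBS. The log2 fold change was -0.27 (SE 0.076, adjusted p = 0.014) against PBS and -0.33 (SE 0.076, adjusted p = 0.0039) against MCF10A EV. In MDA-MB-231 EV it was -0.16 (SE 0.076, adjusted p = 0.17) against PBS. Psmd3, the next lid gene by p, had an adjusted p of 0.17 over the 4 groups and averaged 82.5 ± 4.54 CPM in MDA-MB-231 EV, 84.1 ± 4.99 CPM in MCF10A/miR-122 EV, 93.1 ± 7.02 CPM in MCF10A EV and 90.5 ± 11.3 CPM in PBS livers (SD, n = 6 each).

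The genes of the PA28 alpha-beta cap differed in opposite directions, although their products form a ring together. Psme1 was at 61.7, 67.7 and 74.2 CPM in MDA-MB-231 EV and 56.7, 64.8 and 80.1 CPM in MCF10A/miR-122 EV livers, against 47.3, 61.1 and 66.2 CPM in MCF10A EV and 45.1, 55.4 and 62.8 CPM in PBS livers. Against PBS it rose by 0.30 on the log2 scale in both MDA-MB-231 EV (SE 0.096, adjusted p = 0.042) and MCF10A/miR-122 EV (SE 0.096, adjusted p = 0.035). With scaling to library totals only, neither was called: the value was 0.17 (adjusted p = 0.20) in MDA-MB-231 EV and 0.20 (adjusted p = 0.13) in MCF10A/miR-122 EV. Leaving out a library lost the call in 9 of 24 fits in MDA-MB-231 EV and in 6 of 24 in MCF10A/miR-122 EV. Psme2 was at 21.4, 23.2 and 26.6 CPM in MDA-MB-231 EV and 17.9, 19.05 and 27.6 CPM in MCF10A/miR-122 EV livers, against 24.9, 29.4 and 35.9 CPM in MCF10A EV and 20.8, 27.7 and 32.3 CPM in PBS livers. The groups overlapped. In MCF10A/miR-122 EV it fell by 0.36 (SE 0.12, adjusted p = 0.040) against PBS and by 0.46 (SE 0.12, adjusted p = 0.0093) against MCF10A EV on the log2 scale. The call against PBS was lost in 8 of 24 fits without a library, with an adjusted p of up to 0.082, and that against MCF10A EV in 0. In MDA-MB-231 EV the value was -0.21 (SE 0.12, adjusted p = 0.27) against PBS and -0.32 (SE 0.12, adjusted p = 0.11) against MCF10A EV.

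The ratio of Psme1 to Psme2 in each library separated the sets more clearly than either gene. It was 2.67 to 2.95 in MDA-MB-231 EV and 2.80 to 3.44 in MCF10A/miR-122 EV libraries, against 1.84 to 2.12 in MCF10A EV and 1.78 to 2.26 in PBS libraries. The mean was 2.83 ± 0.110 in MDA-MB-231 EV, 3.16 ± 0.258 in MCF10A/miR-122 EV, 1.97 ± 0.108 in MCF10A EV and 2.004 ± 0.181 in PBS livers (SD, n = 6 each). The ratio is a description with no test. It combines 2 genes called in opposite directions across the same sets, so its clearer separation is not separate evidence.

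**Figure D3:**
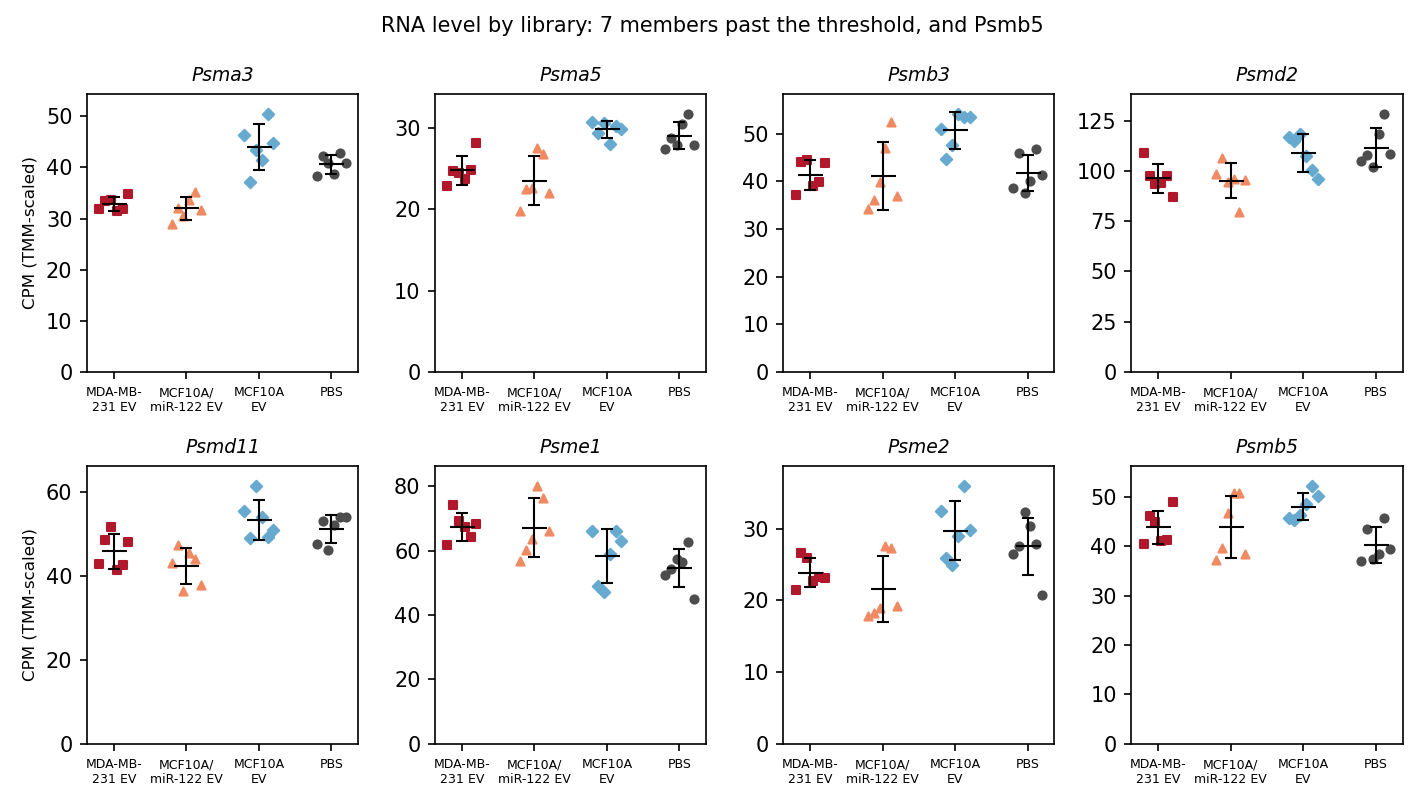
CPM on TMM-scaled library sizes of the 7 called genes and, for comparison, Psmb5, in each library (points) with the mean and SD of each group (bars, n = 6). Psma3 separates the 12 MDA-MB-231 EV and MCF10A/miR-122 EV libraries (28.9 to 35.2 CPM) from the 12 MCF10A EV and PBS libraries (37.1 to 50.4 CPM), and the other panels overlap more.

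Kupffer cell markers differed between some of the groups. Of 8 tested markers, 5 were called higher and 0 lower in MCF10A/miR-122 EV against PBS, and 6 higher and 0 lower against MCF10A EV. In MDA-MB-231 EV, 0 of 8 were called in either direction against PBS or MCF10A EV. In MDA-MB-231 EV against MCF10A/miR-122 EV, 0 of the 8 markers were called higher and 3 lower, with a median log2 fold change of -0.50. Of all genes, 0.254% were called in that comparison. Psmd2, Psmd11 and Psme2 were called in MCF10A/miR-122 EV and not in MDA-MB-231 EV, and Psma3, Psma5, Psme1 and Psmb3 in both. For these proteasome genes, a call in 1 of the groups only is not a difference between the groups. In edgeR's test of MDA-MB-231 EV against MCF10A/miR-122 EV, 0 of 44 genes had an unadjusted p under 0.05. The part of these cells in the results was not tested.

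Chaperones of assembly did not pass the test. Among those of the 19S, Psmd9 averaged 24.1 ± 2.44 CPM in MDA-MB-231 EV, 26.6 ± 4.09 CPM in MCF10A/miR-122 EV, 22.5 ± 2.86 CPM in MCF10A EV and 21.9 ± 3.85 CPM in PBS livers (SD, n = 6 each), with an adjusted p of 0.21 over the 4 groups in edgeR's test. Psmd10, also known as gankyrin, was at 6.24 to 8.47 CPM in the MDA-MB-231 EV and MCF10A/miR-122 EV libraries and 7.02 to 9.20 CPM in the MCF10A EV and PBS libraries. Among those of the core, Psmg2 was at 11.8 to 17.7 CPM and Psmg4 at 3.96 to 7.98 CPM over all libraries, with adjusted p-values of 0.47 and 0.65. Psmc3ip had an adjusted p of 0.57.

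The core and the regulatory particle were then compared as sets, by counts and medians. For MDA-MB-231 EV against PBS, 11 of 14 core genes and 8 of 17 regulatory genes had a log2 fold change above 0, with medians of 0.12 and -0.0066, against a median of 0.0034 over all genes tested. For MCF10A/miR-122 EV against PBS it was 10 of 14 and 6 of 17, with medians of 0.077 and -0.052, against 0.0010 over all genes. In MCF10A EV against PBS it was 14 of 14 and 14 of 17, with medians of 0.10 and 0.073, against 0.0077 over all genes. Against MCF10A EV, the core and regulatory medians were 0.015 and -0.11 in MDA-MB-231 EV, and -0.031 and -0.099 in MCF10A/miR-122 EV. They were 0.044 and 0.0099 in MDA-MB-231 EV against MCF10A/miR-122 EV. These directions against PBS depend on the scaling. With scaling to library totals only, the median of all genes moved to -0.125 in MDA-MB-231 EV, -0.0917 in MCF10A/miR-122 EV and -0.0937 in MCF10A EV, and the core medians to -0.0032 in MDA-MB-231 EV, -0.020 in MCF10A/miR-122 EV and 0.0061 in MCF10A EV. The regulatory medians then were -0.14 in MDA-MB-231 EV, -0.15 in MCF10A/miR-122 EV and -0.023 in MCF10A EV. Under each scaling the core median lay above the regulatory median in all 6 comparisons. A scaling moves both medians together, so it had little room to change this order. The 6 comparisons also rest on 4 groups, and each names first the group with the higher balance given below. They are therefore not separate evidence.

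The balance between the particles is formed within a library, as the median centred log2 level of the core genes minus that of the regulatory genes. The scaling of a library cancels in this balance, apart from the prior count. Its difference between MDA-MB-231 EV and PBS was therefore 0.129 with library totals only as with the main scaling, which is no check on it. The balance averaged 0.051 ± 0.041 in MDA-MB-231 EV, 0.032 ± 0.141 in MCF10A/miR-122 EV, -0.0050 ± 0.093 in MCF10A EV and -0.078 ± 0.055 in PBS livers (SD, n = 6 each). All 6 PBS libraries were below 0 (-0.16 to -0.012), and 5 of 6 MDA-MB-231 EV libraries were above 0 (-0.023 to 0.093). Relative to PBS the difference was 0.13 in MDA-MB-231 EV (pooled SD 0.049), 0.11 in MCF10A/miR-122 EV (pooled SD 0.107) and 0.073 in MCF10A EV (pooled SD 0.077). The difference exceeded its pooled SD in MDA-MB-231 EV and by a narrow margin in MCF10A/miR-122 EV, and was smaller than it in MCF10A EV. No test was run on this score. The annotated transcripts of the regulatory genes were 1.32 kb or longer, and those of most core genes were shorter. The part of transcript length in this score was not tested. The remaining differences were 0.019 to 0.056, all below their pooled SDs of 0.072 to 0.12. The highest library was MCF10A/miR-122 EV replicate 5, at 0.29. Without it the difference in MCF10A/miR-122 EV was 0.058 against PBS and -0.015 against MCF10A EV. Without MCF10A/miR-122 EV replicate 1, that between MDA-MB-231 EV and MCF10A/miR-122 EV was -0.0078.

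In CPM, the 14 core genes summed to 984 ± 56.9 CPM in MDA-MB-231 EV, 955 ± 113 CPM in MCF10A/miR-122 EV, 996 ± 59.2 CPM in MCF10A EV and 918 ± 51.3 CPM in PBS livers (SD, n = 6 each). The 17 regulatory genes summed to 1129 ± 45.8 CPM in MDA-MB-231 EV, 1124 ± 63.7 CPM in MCF10A/miR-122 EV, 1211 ± 24.9 CPM in MCF10A EV and 1164 ± 94.5 CPM in PBS livers. The ratio of the sums ranged from 0.823 to 0.902 in MDA-MB-231 EV, 0.768 to 0.960 in MCF10A/miR-122 EV, 0.772 to 0.888 in MCF10A EV and 0.749 to 0.839 in PBS libraries. The groups overlapped. Within the core, alpha genes summed to 421 ± 23.5 CPM in MDA-MB-231 EV, 409 ± 49.9 CPM in MCF10A/miR-122 EV, 429 ± 30.1 CPM in MCF10A EV and 405 ± 20.5 CPM in PBS livers. Beta genes summed to 563 ± 33.7 CPM in MDA-MB-231 EV, 546 ± 64.1 CPM in MCF10A/miR-122 EV, 566 ± 30.4 CPM in MCF10A EV and 513 ± 32.4 CPM in PBS livers.

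**Figure D4:**
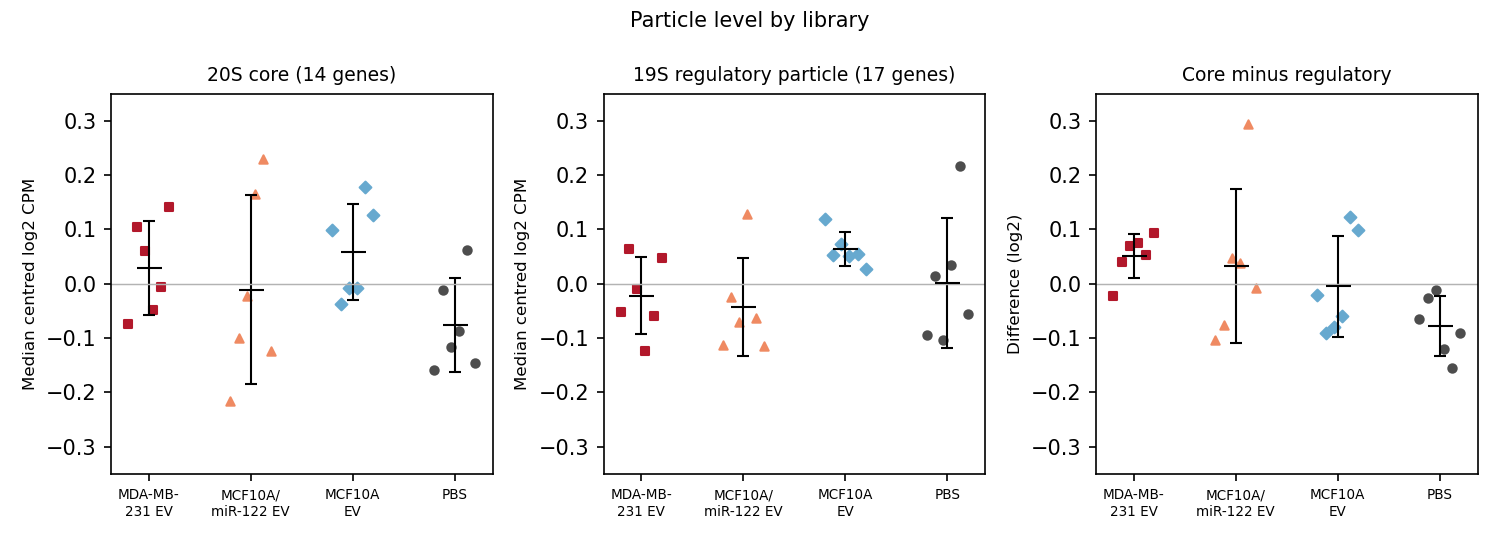
Median centred log2 CPM of the core genes (left) and of the regulatory genes (middle), and the difference of the 2 (right), by group; points are libraries and bars the mean and SD of 6. The PBS libraries all lie below 0 in the difference, from -0.16 to -0.012, while MDA-MB-231 EV libraries lie between -0.023 and 0.093.

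The called genes shared a property that the naming rule did not use. Shared sequence was measured on 1 GENCODE M21 transcript per gene, as the share of its 32-base words that also occur in another gene. A share of 10% or more is called multi-copy here, whether or not the other gene is a copy. Of the 44 genes, 12 were multi-copy, and all 7 called genes were among them, while 0 of the other 32 were called in any comparison in the fit of all libraries with TMM scaling. The shares were 66.3% for Psmb3, 65.8% for Psme2, 63.4% for Psma5, 43.99% for Psmd2, 26.6% for Psma3, 21.9% for Psmd11 and 21.6% for Psme1. This split depends on the settings. With library totals only, Psmd1, Psmd3, Psmd5, Psmd7 and Psmf1, none of them multi-copy, were also called lower in MDA-MB-231 EV against PBS. In the same comparison Psma2, at 8.51% and so not multi-copy, was called higher with DESeq2, with only the compared groups fitted and with a replicate block. Leaving out 1 library, Psma2 was called there without MCF10A/miR-122 EV replicate 1, 4 or 5. In MCF10A/miR-122 EV against MCF10A EV, Psmd14 was called without replicate 4 and Psmd4 without replicate 5 of MCF10A/miR-122 EV. The main sharing partners are mostly predicted loci, and for Psme2 also the retrogene Psme2b. Some partners overlap the gene itself on the same strand: Gm26938 for Psmg3 and, among others, Mir686 for Psmb5. Psmd11 shares with Dnajc25 and Olfr2 besides the predicted Gm14048. The 5 multi-copy genes without a call were Psmb5 at 73.3%, Psmc1 at 38.3%, Psma4 at 38.1%, Psmg3 at 24.3% and Psmb6 at 14.3%. The nearest genes under the limit were Psmb1 at 9.09%, Psmd1 at 8.89% and Psma2 at 8.51%.

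Over all genes the difference between multi-copy and other genes was smaller. Of 1948 multi-copy genes, 12.3% were called in MDA-MB-231 EV against MCF10A EV, compared with 6.98% of 10489 others. For MCF10A/miR-122 EV against MCF10A EV it was 20.6%, compared with 15.4% of the others. Against PBS it was 13.2%, against 11.4%, in MDA-MB-231 EV, and 19.7%, against 17.5%, in MCF10A/miR-122 EV. Within the sets it was 0.667%, against 1.15%, in MCF10A EV against PBS and 0.257%, against 0.238%, in MDA-MB-231 EV against MCF10A/miR-122 EV. Over the 4 groups it was 24.5%, against 20.8%. How reads that map to several places were counted is not given in the sources used here, so the levels of these 12 genes are uncertain. The part of shared sequence in the calls was not tested. The sharing loci were not analysed here.

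**Figure D5:**
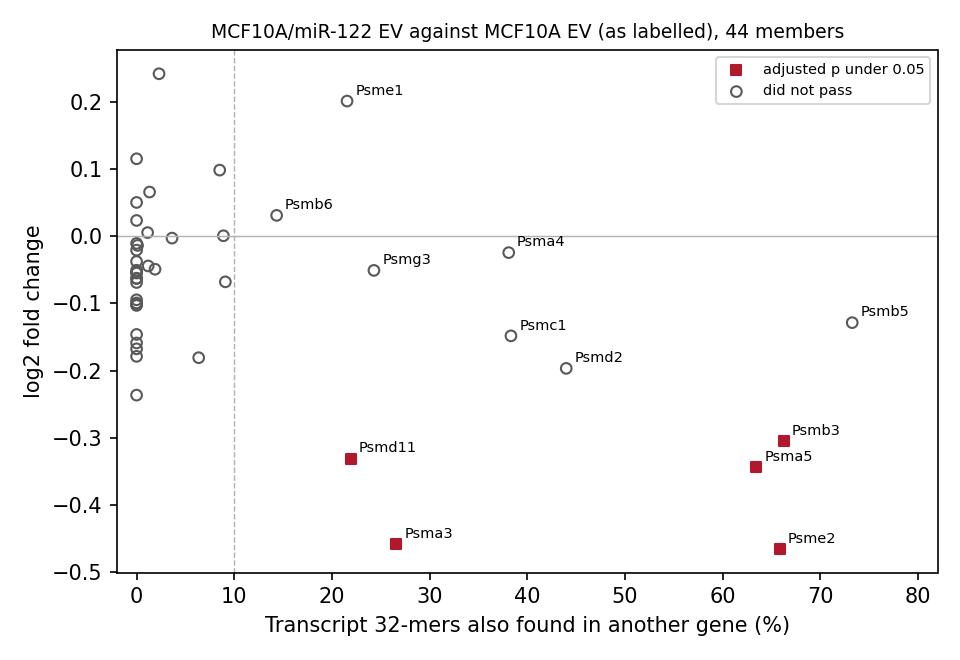
Log2 fold change of the 44 genes in MCF10A/miR-122 EV against MCF10A EV, by the percent of 32-base words shared with another gene; filled points are called. All called genes lie at or right of the limit of 10%, and the 32 genes left of it have no call.

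Genes linked to the proteasome but outside the naming rule were listed for their roles: 43 symbols, of which 39 were tested. Of these, 0 were called higher and 2 lower in MDA-MB-231 EV against PBS. In MCF10A/miR-122 EV, 1 was called higher and 2 lower against PBS, and 1 higher and 3 lower against MCF10A EV. These are 5.13%, 7.69% and 10.3% of the 39, each below the 11.7%, 17.9% and 16.2% of all genes called in those comparisons. For MDA-MB-231 EV against MCF10A EV and both comparisons within a set, edgeR called 0 of 39 in either direction. Genes at an unadjusted p under 0.05 numbered 9 in MDA-MB-231 EV against MCF10A EV (23.1%, against 22.3% of all genes), 7 in MCF10A EV against PBS (17.9%, against 17.3%) and 0 in MDA-MB-231 EV against MCF10A/miR-122 EV (against 8.19%).

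Tap1, a subunit of the transporter that carries proteasome-made peptides to MHC class I, fell most. It was at 9.70, 13.1 and 14.7 CPM in MDA-MB-231 EV and 9.19, 10.7 and 13.6 CPM in MCF10A/miR-122 EV livers, against 13.5, 15.5 and 26.9 CPM in MCF10A EV and 16.4, 20.5 and 21.7 CPM in PBS livers. No library of the first 2 groups reached the lowest PBS library. Against PBS the log2 fold change was -0.61 (SE 0.14, adjusted p = 0.0066) in MDA-MB-231 EV and -0.84 (SE 0.14, adjusted p = 0.00029) in MCF10A/miR-122 EV. Against MCF10A EV it was -0.65 (SE 0.14, adjusted p = 0.0031) in MCF10A/miR-122 EV. Tap1 lies head to head with Psmb9, an immunoproteasome gene, and the annotation has the 2 genes overlapping on opposite strands.

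The immunoproteasome genes did not pass the test. Psmb9 was at 9.57 ± 1.90 CPM in MDA-MB-231 EV, 7.85 ± 1.29 CPM in MCF10A/miR-122 EV, 9.84 ± 3.88 CPM in MCF10A EV and 9.53 ± 2.42 CPM in PBS livers (SD, n = 6 each). Psmb8 was at 35.3 ± 2.94 CPM in MDA-MB-231 EV, 33.0 ± 4.86 CPM in MCF10A/miR-122 EV, 32.9 ± 6.24 CPM in MCF10A EV and 29.4 ± 3.63 CPM in PBS livers. Adjusted p-values over the 4 groups were 0.53 for Psmb9, 0.29 for Psmb8, 0.85 for Psmb10 and 0.35 for the core assembly factor Pomp in edgeR's test. Psmb10 ranged from 19.5 to 38.6 CPM, and Pomp from 77.3 to 111 CPM, over all libraries.

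Among factors that deliver substrates, Vcp, the segregase that extracts ubiquitinated proteins, fell to 181 ± 6.81 CPM in MDA-MB-231 EV (adjusted p = 0.034) and 180 ± 14.6 CPM in MCF10A/miR-122 EV livers (adjusted p = 0.019), against 210 ± 16.5 CPM in PBS livers (SD, n = 6 each). It was at 203 ± 16.4 CPM in MCF10A EV livers. Every MDA-MB-231 EV and MCF10A/miR-122 EV library lay below every PBS library, and MCF10A EV overlapped with PBS. Sqstm1, an autophagy receptor for ubiquitinated proteins, fell to 325 ± 39.6 CPM in MCF10A/miR-122 EV livers, against 392 ± 17.9 CPM in MCF10A EV livers (SD, n = 6 each). The log2 fold change was -0.27 (SE 0.083, adjusted p = 0.027). Ubqln1, a shuttle factor, fell by 0.25 (SE 0.079, adjusted p = 0.030) in the same comparison on the log2 scale. Mafg, a partner of Nfe2l1 on DNA, rose by 0.29 there (SE 0.089, adjusted p = 0.028). Against PBS, Sqstm1, Ubqln1 and Mafg were not called in MCF10A/miR-122 EV. Mafg spanned 29.7 to 43.5 CPM in MCF10A/miR-122 EV, 23.4 to 31.4 CPM in MCF10A EV and 27.4 to 34.5 CPM in PBS libraries. Ubqln1 spanned 108 to 137 CPM, 140 to 163 CPM and 106 to 167 CPM in the same groups. The call of Sqstm1 over the 4 groups was lost in 9 of 24 fits without a library.

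Akirin2, which in human cells carries proteasomes into the nucleus, rose to 18.9 ± 2.99 CPM in MCF10A/miR-122 EV livers, against 15.1 ± 1.495 CPM in PBS livers (SD, n = 6 each). The log2 fold change was 0.33 (SE 0.095, adjusted p = 0.019). Its call over the 4 groups, at an adjusted p of 0.047, was lost with scaling to library totals only (0.17) and in 13 of the 24 fits without a library. Nfe2l1 was at 141 ± 12.9 CPM in MDA-MB-231 EV, 128 ± 12.1 CPM in MCF10A/miR-122 EV, 150 ± 17.1 CPM in MCF10A EV and 138 ± 22.5 CPM in PBS livers, with an adjusted p of 0.32 over the 4 groups.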

How the data were processed

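Per the labels' protocols, TRIZOL was used to isolate total RNA from liver and a Kapa kit for stranded mRNA to build the libraries. The authors deposited 1 table of raw read counts by gene symbol, in whole numbers and not normalized. The submitters' processing notes name TopHat2, bcl2fastq 2.18.0.12 and mm9. No source used here gives the counter, its annotation and strand setting, or how it treated reads with several matches, so counts of gene copies and of antisense or overlapping genes are uncertain. The 27 rows that share 11 symbols (0.0744% of counts) stayed out of the tests.

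Counts of 24 libraries (21.3 to 33.7 M each) were grouped by treatment label and fitted once in edgeR 4.0.16, under R 4.3.3, with a mean per group, TMM scaling and filterByExpr. The quasi-likelihood F test was two-sided, and p-values were adjusted over 13773 genes by the Benjamini-Hochberg method (threshold 0.05). The common biological coefficient of variation was 16.8%. Standard errors (SE) came from the F statistic. CPM use library sizes scaled by TMM and are given as lowest, median and highest or as mean ± SD. Log2 particle levels used a prior count of 2. The script was tested on simulated data. Alternatives were RLE and library-total scaling, other filters, DESeq2 1.42.0, limma-voom (limma 3.58.1), fits of the compared groups, a replicate block, the identities in the library names and leaving out each library.

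Transcript lengths and shared 32-base words came from GENCODE M21 (GRCm38), another build than the counts, and served for names and sequence. Of the tested symbols, 90.3% matched for the comparison over all genes. Genes named are the called members, the 2 with the smallest p in each subcomplex, the catalytic genes, the immunoproteasome genes with Pomp, the 4 linked genes with the smallest p and Nfe2l1; Psma2, Mafg and Ubqln1, the genes that lead a range, and those named for sequence or scaling were picked with their values in view. The members and all lists were chosen with earlier results of these data known. Deviations of same-numbered libraries had correlations from -0.43 to 0.374, above 0.1 in 13 of 36 pairs. The signs were mixed, so numbers were not taken to pair samples, and a pairing is not excluded.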

Additional observations from a re-analysis of the deposited data

Results flagged for a closer look

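In 7 of 192 groups of 6 libraries, the highest or lowest library stood apart from the rest by Dixon's test, where chance gives about 1 group in 20. Psma5 was at 28.1 CPM in MDA-MB-231 EV replicate 6, against 22.9 to 24.8 CPM in the other 5. Psmc1 was at 63.3 CPM in MCF10A/miR-122 EV replicate 4, against 50.2 to 53.6 CPM in the rest of the group. In the same library Psmg2 was at 15.97 CPM, against 11.8 to 13.1 CPM. Psmd7, a lid subunit, was at 65.6 CPM in MCF10A/miR-122 EV replicate 3, against 55.6 to 58.7 CPM. Psmc6, a base ATPase, was at 53.2 CPM in MCF10A EV replicate 4, against 63.8 to 68.5 CPM. Psmd3 was at 112.0 CPM in PBS replicate 5, against 81.7 to 92.7 CPM. Psme4 was at 79.8 CPM in PBS replicate 3, against 104 to 114 CPM. The core sum, the regulatory sum, their balance and the ratio of Psme1 to Psme2 were checked in the same way, and no library stood apart.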

How the results depend on the processing

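The number of the 44 genes called, 3 in MDA-MB-231 EV against PBS, became 11 with library totals only (25%, against 18.8% of all genes), 5 with DESeq2 (11.4% against 14.6%), 5 with only the compared groups (11.4% against 13.9%) and 6 with the identities of the library names (13.6% against 17.9%). In MCF10A/miR-122 EV against PBS, 6 became 3 with only the compared groups (6.82% against 12.5%) and 3 with the library names. In MDA-MB-231 EV against MCF10A EV, 3 became 5 with library totals only and 5 with the library names, and in MCF10A/miR-122 EV against MCF10A EV, 5 became 3 with the library names. In MCF10A EV against PBS, 0 became 1 (Psmd5, lower) with library totals only. The cause was not tested, except that the library names exchange the groups by construction. Leaving out each library in turn gave 1 to 5 calls in MDA-MB-231 EV and 3 to 6 in MCF10A/miR-122 EV against PBS, 2 to 4 in MDA-MB-231 EV and 4 to 7 in MCF10A/miR-122 EV against MCF10A EV, 0 to 2 in MCF10A EV against PBS, 0 in MDA-MB-231 EV against MCF10A/miR-122 EV and 5 to 7 over the 4 groups. Without PBS replicate 5, 2 were called in MCF10A EV against PBS, and the calls over all genes numbered 741, against 147 with it. The share of the 44 called also passed that of all genes with no filter on low counts (13.6% against 11.7% in MCF10A/miR-122 EV against PBS, and 11.4% against 10.6% in MCF10A/miR-122 EV against MCF10A EV), and in MDA-MB-231 EV against MCF10A EV without PBS replicate 5 (9.09% against 8.58%), without MCF10A EV replicate 2 (6.82% against 5.96%) or without MCF10A/miR-122 EV replicate 4 (9.09% against 8.22%). With a replicate block, Psma2 joined the calls in MDA-MB-231 EV against PBS (4 calls, 2 higher and 2 lower), and the other counts were as without the block. Over all genes, 1719 were called in that comparison with the block, against 1607 without it. The numbers were not taken to pair the samples. Psma3 and Psma5 were called in the 4 crossing comparisons under every alternative run except leaving out a library, where Psma5 lost 6 of 24 fits in MDA-MB-231 EV against PBS. The core minus regulatory differences moved by less than 1 pooled SD under the alternatives. Those that change only the scaling nearly cancel in this score and so do not check it. Leaving out a library, they ranged from 0.11 to 0.14 in MDA-MB-231 EV against PBS, 0.058 to 0.14 in MCF10A/miR-122 EV against PBS and 0.047 to 0.090 in MCF10A EV against PBS.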
